A study of Mus musculus with 4 samples.

Results

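The 9 genes described here belong to RET signalling and the ureteric tip and were followed in captured structures of the fetal mouse kidney: Ret, Gfra1, Etv4, Etv5, Sox8, Sox9, Mycn, Ros1 and Adamts18. Their 21 probe sets were all those on the array whose platform symbol was 1 of these 9 names, out of 45101 probe sets in all, and the values of all 4 arrays were used. The cortical collecting duct was represented by 1 array, numbered replicate 3, and the anlage of the loop of Henle by 3 arrays, numbered 1 to 3. Every array held RNA of wild-type CD-1 fetuses of unknown sex at E15.5 (E counts embryonic days), cut by laser from frozen sections and pooled from about 50 sections of 5 kidneys. CD-1 is an outbred stock, and neither the criteria for cutting a structure nor any sharing of kidneys or litters between pools is stated. All p-values rest on the spread between the 3 anlage arrays, which may be partly technical and was taken to hold for the collecting duct.

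RET is a receptor tyrosine kinase at the surface of the growing ureteric epithelium. It signals when GDNF, a ligand made by the surrounding mesenchyme, binds the co-receptor GFRA1. Inside the cell the signal acts on the transcription factors ETV4 and ETV5. In the mouse kidney this activity is concentrated at the branching tips, while the stalks behind them turn into collecting duct. SOX8 and SOX9 act with the pathway in the tips, MYCN is a growth-promoting factor of tips and nephron progenitors, ROS1 is another receptor tyrosine kinase and ADAMTS18 is a secreted protease.

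No tested RET or tip gene was called different between the collecting duct and the loop anlage. Of the 6 members that passed the filter on dim signal, the collecting duct array lay inside the range of the anlage arrays for 5 and above all 3 for Gfra1, which codes for the co-receptor. Across all tested genes it lay above all 3 anlage arrays for 17.3% and below all 3 for 24.3%. With limma (Benjamini-Hochberg adjustment over 12642 genes) 0 of the 6 passed, and 0% of all genes did. At an unadjusted p under 0.05 there were also 0 of 6 members, against 3.41% of all genes. The median difference of the 6 was 0.025 on the log2 scale (collecting duct minus anlage), against −0.065 over all tested genes. Sox8, Ros1 and Adamts18 were too dim to be tested.

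Values below are log2(signal + 109.6) after quantile normalization, the added offset being its 25th percentile. A gene is represented by its brightest probe set and was tested where its mean value reached 8.416, the 40th percentile of all probe sets. For dim genes such a difference is too small. Values of different probe sets are not comparable with each other as amounts of RNA. In bulk samples of this kind, fewer cells of a type and less RNA per cell cannot be told apart.

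Upstream sequence from RefSeq (GRCm38.p6) was at hand for 6 of the 9 members: Gfra1, Etv5, Sox8, Mycn, Ros1 and Adamts18. The 250 bases before a start site are shown for 3 of them, all on the minus strand and written 5′ to 3′: Gfra1, the tested member that lay above all anlage arrays, and Etv5 and Mycn, whose brightest probe sets had the same highest and lowest anlage array as Ret. Capitals mark matches, on either strand, to 4 motifs picked after the sequences had been read: the ETS core CCGGAA, the E-box CACGTG, the E2F-type TTTGGCGC and the CCAAT box CCAAT. Gfra1 is at chr19:58455399-58455648, Etv5 at chr16:22439571-22439820 and Mycn at chr12:12941837-12942086.
Gfra1: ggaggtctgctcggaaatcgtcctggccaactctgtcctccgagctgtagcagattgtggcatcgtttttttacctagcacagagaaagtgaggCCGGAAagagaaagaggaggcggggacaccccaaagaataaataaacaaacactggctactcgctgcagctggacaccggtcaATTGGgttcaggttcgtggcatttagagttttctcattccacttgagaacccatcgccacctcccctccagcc
Etv5: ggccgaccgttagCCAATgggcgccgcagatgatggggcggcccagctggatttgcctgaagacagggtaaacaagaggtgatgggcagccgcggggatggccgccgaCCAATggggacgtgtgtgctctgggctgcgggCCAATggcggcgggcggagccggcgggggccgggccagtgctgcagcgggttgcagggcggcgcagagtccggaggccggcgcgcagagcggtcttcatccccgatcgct
Mycn: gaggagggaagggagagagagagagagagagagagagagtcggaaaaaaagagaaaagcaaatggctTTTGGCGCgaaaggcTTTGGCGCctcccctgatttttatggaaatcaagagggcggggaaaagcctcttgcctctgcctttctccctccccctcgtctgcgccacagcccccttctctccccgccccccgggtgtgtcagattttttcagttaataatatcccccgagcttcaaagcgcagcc
The Gfra1 stretch, taken before a start site that is not the outermost of the gene, held 1 ETS core and 1 CCAAT box. That of Etv5, taken before the outermost of its 2 listed start sites, held 3 CCAAT boxes. That of Mycn, also before its outermost start, held 2 E2F-type matches. The E-box was in none of the 3, but the Sox8 stretch, not shown, held 1. The stretch before the other Etv5 start, at chr16:22438369-22438618, held 1 CCAAT box and is not shown. None of the marked matches overlapped. Of 32851 promoters of this length, 12.0% held the ETS core, 6.02% the E-box, 0.417% the E2F-type motif and 33.9% the CCAAT box. As the motifs were picked from the member sequences, these shares do not measure how unusual a match is. A match describes the letters in this window and says nothing of binding in these cells.

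Ret itself had a wider spread between the anlage arrays than nearly any tested gene. Its brightest probe set, 1436359_at, stood at 10.34 in the collecting duct and at 10.31, 12.10 and 8.18 in anlage arrays 1, 2 and 3. The collecting duct thus matched anlage array 1, while anlage arrays 2 and 3 lay far above and far below it. In deposited signal units these were 1285 in the collecting duct and 1393, 4484 and 176.5 in the anlage arrays. The anlage SD of 1.96 (n = 3) was at the 99.3th percentile of the tested genes, whose median SD was 0.46. The difference was 0.14 ± 1.40 (SE; limma 95% interval −3.27 to 3.56), an interval wide enough to hold large changes either way. Leaving out anlage array 2 gave 1.04 and leaving out array 3 gave −0.86, and its sign also turned with arrays scaled to a common median and with a larger offset. The other probe set, 1421359_at, stood at 9.29 in the collecting duct and at 9.48, 9.22 and 8.63 in the anlage arrays. There too anlage array 3 was the lowest, but anlage array 1 was the highest and the range was 0.86 in place of 3.92.

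Gfra1, the GDNF-binding co-receptor, was the only tested member with its collecting duct value above every anlage array. Probe set 1439015_at stood at 13.20 in the collecting duct and at 12.13, 12.92 and 11.86 in anlage arrays 1, 2 and 3, so the nearest anlage array was 0.29 below. The difference was 0.90 ± 0.59 (SE; limma 95% interval −0.54 to 2.34, adjusted p = 1), and it ranged from 0.55 to 0.91 over 10 other settings. The probe set 1450440_at gave the same placing, at 13.10 in the collecting duct and at 12.75, 10.52 and 11.57 in the anlage arrays. Its difference was 1.48, with a 95% interval from −0.78 to 3.75 in a fit over probe sets. The 2 probe sets disagreed on anlage array 2, which was the highest anlage array in the first and the lowest in the second. The remaining probe set, 1421973_at, was dim in all 4 arrays, at 7.37 in the collecting duct and 8.36, 7.36 and 7.03 in the anlage.

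**Figure D1:**
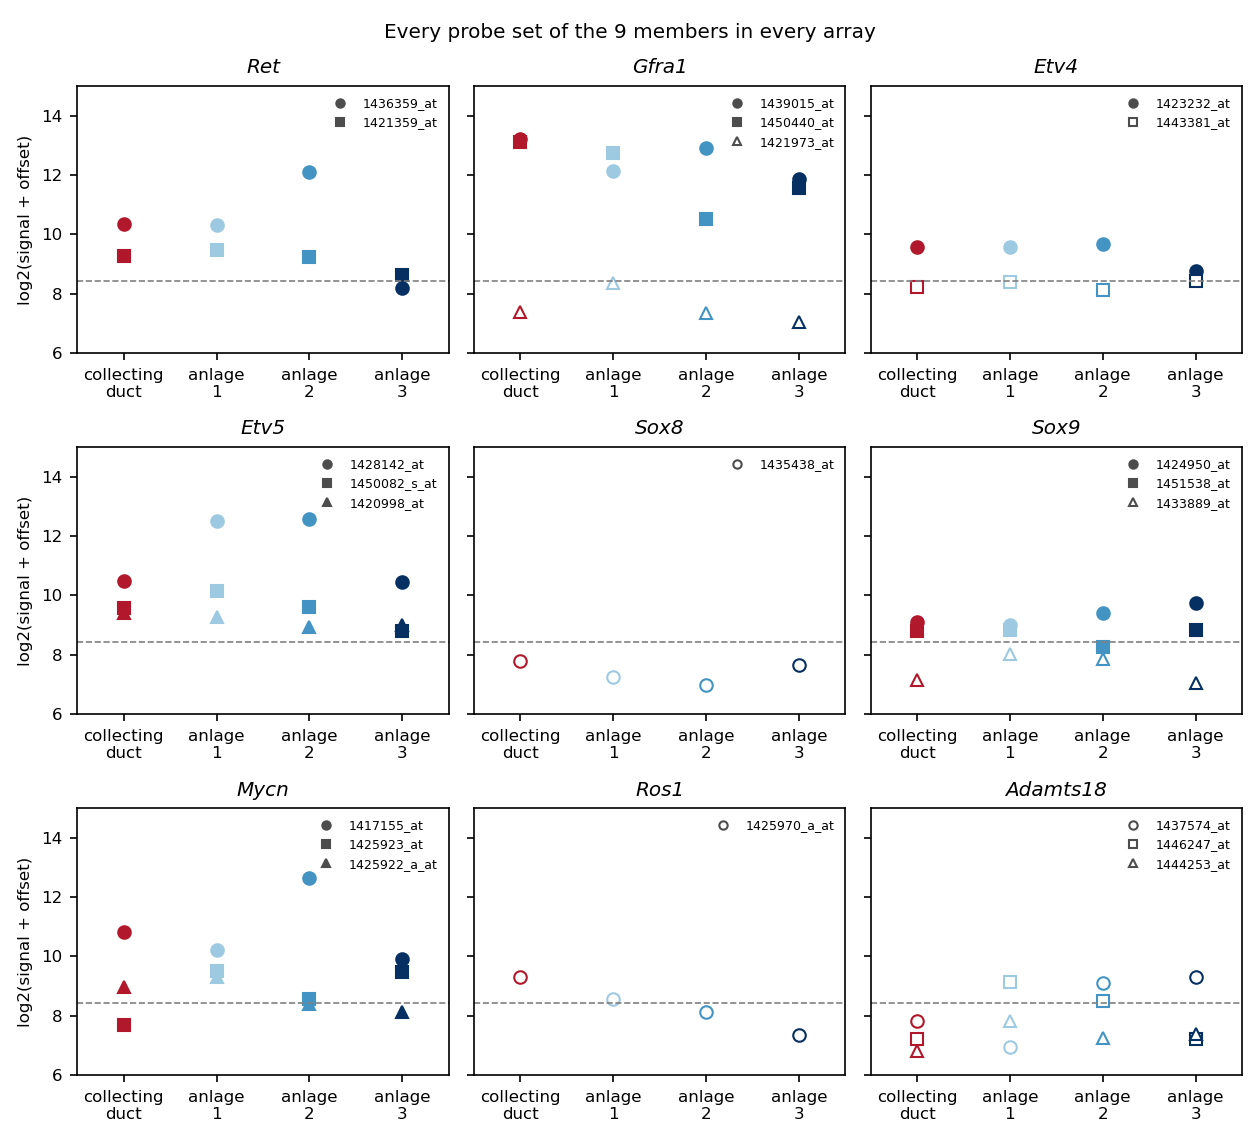
Log2 values of every probe set of the 9 members (y axis, log2(signal + 109.6)) in the collecting duct array (red) and anlage arrays 1 to 3 (blues). Marker shapes tell probe sets of a gene apart, open markers are probe sets whose mean lay under the dashed line at 8.416. In 1436359_at of Ret and 1417155_at of Mycn, anlage array 2 stands above the other 3 arrays, and both bright probe sets of Gfra1 are highest in the collecting duct.

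The ETS factors Etv4 and Etv5, which carry the RET signal to the nucleus, gave no common direction. Etv4 (1423232_at) stood at 9.56 in the collecting duct and at 9.56, 9.68 and 8.76 in anlage arrays 1, 2 and 3. It equalled anlage array 1 to 2 decimals, and anlage array 3 was the lowest. Its difference was 0.23 ± 0.60 (SE; limma 95% interval −1.23 to 1.68), and −0.062 once anlage array 3 was left out. The second Etv4 probe set, 1443381_at, was dim and nearly flat, with 8.24 in the collecting duct and 8.12 to 8.41 in the anlage.

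Etv5 lay under the anlage mean in the collecting duct in its brightest probe set only. That probe set, 1428142_at, stood at 10.47 in the collecting duct and at 12.52, 12.59 and 10.46 in anlage arrays 1, 2 and 3. The collecting duct and anlage array 3 were level, about 2 log2 units under the other pair. The difference was −1.39 ± 0.95 (SE; limma 95% interval −3.69 to 0.92, adjusted p = 1). It was −2.06 without anlage array 3, where the unadjusted p was 0.039 and the adjusted p 1, and −0.33 when its probe sets were averaged. In 1450082_s_at the collecting duct stood at 9.57, against 10.16, 9.61 and 8.79 in the anlage arrays. In 1420998_at it stood at 9.39, against 9.27, 8.92 and 8.99, the highest of the 4 arrays. The differences of these 2 probe sets were 0.055 and 0.33, with 95% intervals of −1.77 to 1.87 and −1.06 to 1.73 in the fit over probe sets.

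Mycn followed the array pattern of Ret in its brightest probe set. The probe set 1417155_at stood at 10.83 in the collecting duct and at 10.22, 12.65 and 9.91 in anlage arrays 1, 2 and 3. In deposited signal units anlage array 2 had 6947, against 1800 in the collecting duct and 1317 and 792.9 in anlage arrays 1 and 3. The anlage SD was 1.50 (n = 3) and the difference −0.094 ± 1.12 (SE; limma 95% interval −2.82 to 2.64). Leaving out anlage array 2 gave 0.70, and leaving out array 3 gave −0.60. The other Mycn probe sets did not share the peak in anlage array 2. In 1425923_at the collecting duct was the lowest array, at 7.68 against 9.50, 8.56 and 9.46, a difference of −1.49 with an unadjusted p of 0.062 (adjusted p = 1, limma over probe sets). In 1425922_a_at it stood at 8.97, against 9.30, 8.39 and 8.11.

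Sox9, the SOXE factor of ureteric tips and early nephrons, was close to level across the arrays. Its brightest probe set, 1424950_at, stood at 9.09 in the collecting duct and at 8.99, 9.41 and 9.75 in anlage arrays 1, 2 and 3. The difference of −0.29 ± 0.55 (SE; limma 95% interval −1.64 to 1.06) was smaller than the anlage SD of 0.38 (n = 3). It was −0.52 with anlage array 1 left out and −0.11 with array 3 left out. The second probe set, 1451538_at, stood at 8.80 in the collecting duct and at 8.84, 8.25 and 8.84 in the anlage, and the last, 1433889_at, was dim at 7.15 against 7.05 to 8.02. Sox8, its close relative, had 1 probe set, below the filter in all 4 arrays, at 7.77 in the collecting duct and 7.26, 6.96 and 7.64 in the anlage. The deposited signals of Sox8 were 110.6 in the collecting duct and 66.5, 8.26 and 92.0 in the anlage arrays, near or under the offset, so their order carries little.

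Ros1, like Gfra1 and Sox8, had its highest value in the collecting duct, here from a single dim probe set, 1425970_a_at. It stood at 9.32 in the collecting duct, above the filter level, and at 8.57, 8.14 and 7.34 in anlage arrays 1, 2 and 3. The deposited signals were 582.2 in the collecting duct and 393.0, 92.2 and 53.3 in the anlage arrays. The difference was 1.30 and the anlage SD 0.63 (n = 3). The gene had no test because its mean over the arrays, 8.341, lay just under the filter, and with no filter it had an unadjusted p of 0.086 and an adjusted p of 1 (limma). The size depended on the offset, at 1.82 with an offset of 16 and 0.77 with an offset at the median.

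Adamts18 had 3 dim probe sets that disagreed on the anlage arrays. In 1437574_at the collecting duct stood at 7.83, against 6.94, 9.10 and 9.32 in anlage arrays 1, 2 and 3. In 1446247_at it stood at 7.22, against 9.12, 8.49 and 7.23, and in 1444253_at at 6.82, against 7.83, 7.26 and 7.37. Anlage array 1 was thus the lowest array in the first probe set and the highest in the other two. The differences were −0.62, −1.06 and −0.67, with no test, and with no filter the first had an unadjusted p of 0.56 (limma). The difference of the gene was −1.41 with anlage array 1 left out, where it passed the filter (unadjusted p = 0.041, adjusted p = 0.43, limma), and −0.28 with array 2 left out. It was −1.62 with array 3 left out, where the brightest probe set was chosen anew.

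Over all 21 probe sets, the collecting duct exceeded the anlage mean in 11 and fell short of it in 10. It lay above all 3 anlage arrays in 5, against 19.8% of all probe sets, and below all 3 in 3, against 23% of all. The 5 belonged to Gfra1, Etv5, Sox8 and Ros1, and the 3 to Mycn and Adamts18. Of the 13 probe sets that passed the filter, limma over 27022 probe sets called 0, as it did among all of them, and 0 had an unadjusted p under 0.05, against 2.31% of all. Probe sets of 1 gene differed in sign for Gfra1, Etv4, Etv5, Sox9 and Mycn, while those of Ret were both positive and those of Adamts18 all negative. Anlage array 3 was the lowest of the 4 arrays for 11 of the 21 probe sets, where it was the lowest for 20.4% of all probe sets. These 11 came from Ret, Gfra1, Etv4, Etv5, Sox9, Mycn and Ros1. Anlage array 2 was the highest array for 4 of the 21, against 33.2% of all probe sets. These were the brightest probe sets of Ret, Etv4, Etv5 and Mycn. Anlage array 1 was the highest for 9, against 26.5% of all.

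**Figure D2:**
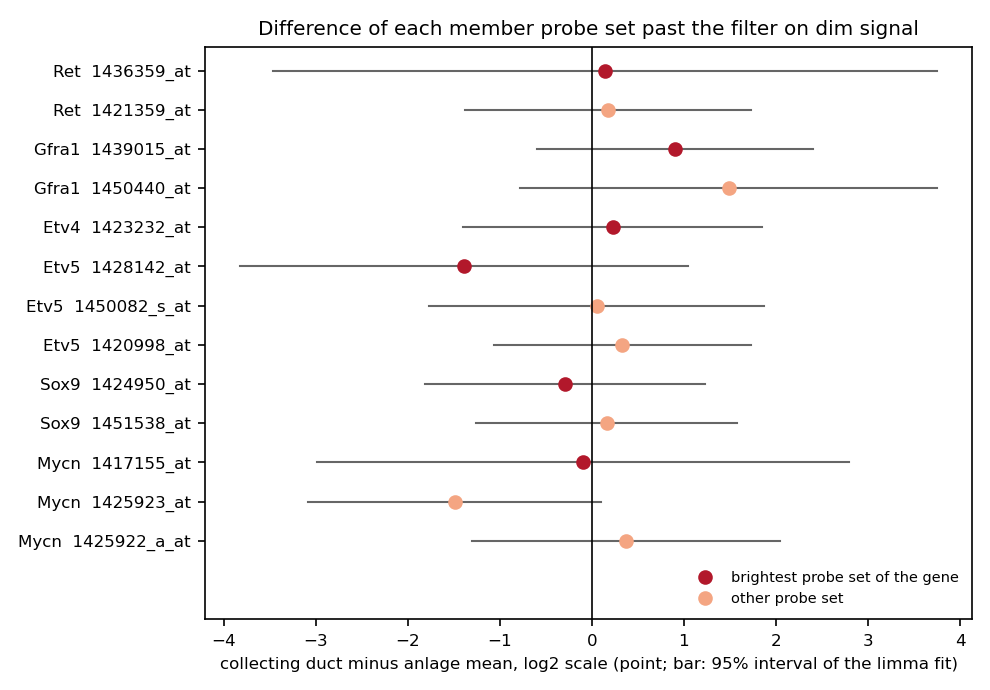
Difference between the collecting duct array and the mean of the 3 anlage arrays (x axis, log2 scale) for the 13 member probe sets past the filter, with 95% intervals from the fit over 27022 probe sets. Dark red points are the probe set that represents a gene and light points the others. All 13 intervals include 0, and those of the brightest Ret and Mycn probe sets are the widest of the brightest ones.

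The other genes of the pathway likewise held no call. In the list of RET ligands and GFRA co-receptors 5 of 7 were tested. Of these, 0 were higher in the collecting duct, against 45.1% of all tested genes. Below all 3 anlage arrays lay 2 of the 5, against 24.3% of all tested genes. Gdnf, the RET ligand of the mesenchyme, stood at 11.69 in the collecting duct and at 11.89, 12.72 and 10.64 in anlage arrays 1, 2 and 3. It was highest in array 2 and lowest in array 3, as the brightest Ret probe set was. The other Ret probe set was highest in array 1, and array 2 was the highest for 33.2% of all probe sets. Gfra4, the co-receptor of persephin, differed by −0.97 ± 0.55 (SE), Gfra2, that of neurturin, by −0.86 ± 1.20 (1 of its 5 probe sets gave 0.44), and the ligand Nrtn by −0.79 ± 0.59. Gfra3, the artemin co-receptor, differed by −0.42 ± 0.59. The median of the 5 was −0.79, and 0 had an unadjusted p under 0.05 (limma), against 3.41% of all genes.

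Among adaptors and kinases that relay the RET signal, 14 of 20 tested genes had higher collecting duct values, against 45.1% of all genes. Their median was 0.19, 5 lay above all 3 anlage arrays (17.3% of all genes did) and 1 below (24.3% did). With limma 0 passed, also at an unadjusted p under 0.05. The small GTPase Nras stood at 13.53 in the collecting duct and at 12.48, 12.45 and 12.40 in the anlage, a difference of 1.08 ± 0.46 (SE), although the lowest of its 3 probe sets gave −0.13. The adaptor Grb7 differed by 0.92 ± 0.54, the exchange factor Sos1 by 0.87 ± 0.52 and the adaptor Shc1 by 0.73 ± 0.60. The docking protein Gab2 was lower, at 11.11 against 11.22, 12.70 and 12.43.

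Genes whose tip expression depends on RET in the mouse gave 2 higher values among 9 tested, against 45.1% of all genes. Their median was −0.37, with 0 calls. Dusp6, a phosphatase that dampens MAP kinase signalling, stood at 11.25 in the collecting duct and at 11.56, 14.76 and 12.90 in anlage arrays 1, 2 and 3. Array 2 was the highest, as it was for 33.2% of all probe sets, and the difference was −1.82 ± 1.16 (SE). The inhibitor Spred2 differed by −0.98 ± 0.59 (its 5 probe sets gave −1.37 to 0.34), the chemokine receptor Cxcr4 by −0.86 ± 0.95, the kinesin Kif26b by 0.66 ± 0.72 and Met, the receptor of hepatocyte growth factor, by −0.54 ± 0.63. Cxcr4 stood at 8.74 in the collecting duct and at 8.25, 10.67 and 9.86 in the anlage arrays. Over the 9 genes the list averaged 11.07 in the collecting duct and 11.20, 12.04 and 11.27 in anlage arrays 1, 2 and 3.

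Among 9 other tip genes, all tested, 6 were higher in the collecting duct, against 45.1% of all genes, and the median was 0.40. With limma 0 were called over all genes and 2 had an unadjusted p under 0.05, against 3.41% of all genes. These were the transporter Slco4c1, whose difference of 3.72 came from 1 of its 2 probe sets (the other gave −0.23), and Npnt. Npnt codes for nephronectin, a matrix ligand through which ureteric epithelium sustains Gdnf in the mesenchyme. It stood at 14.96 in the collecting duct and at 11.25, 13.43 and 12.55 in the anlage arrays, a difference of 2.55 ± 0.85 (SE; adjusted p = 1), and its 5 probe sets gave −0.09 to 2.71. Lhx1, a LIM homeobox factor of tips and early nephrons, differed by −1.29 ± 0.85 (its other probe set gave 0.33), Agtr2, the type 2 angiotensin receptor, by −0.70 ± 0.74 and the protease Adamts16, a relative of Adamts18, by 0.68 ± 0.80.

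Among regulators of Ret or of its ligand 11 of 23 had a higher value, against 45.1% of all genes. The median was −0.084 and 0 were called. Gata3 and Fgfr2 had unadjusted p values under 0.05 (limma), as 3.41% of all genes did. Gata3, a zinc finger factor needed for Ret expression in the nephric duct, differed by 3.53 ± 0.84 (SE). Fgfr2, the FGF receptor of the ureteric epithelium, differed by 1.34 ± 0.53 (SE). Fgfr2 stood at 13.82 in the collecting duct and at 12.00, 12.64 and 12.79 in the anlage, and its 3 probe sets all gave a positive difference, from 1.34 to 2.26. Tfap2a differed by 1.26 ± 0.97, Foxc2 by −0.93 ± 0.71 and the BMP antagonist Grem1 by 0.83 ± 0.73. Of relatives of the members 4 of 8 were tested and 1 was higher. Myc differed by −0.73 ± 0.58, Adamts16 as above, and Sox10 and Mycl both by −0.17, with SEs of 0.51 and 1.04 and probe sets of both signs.

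**Figure D3:**
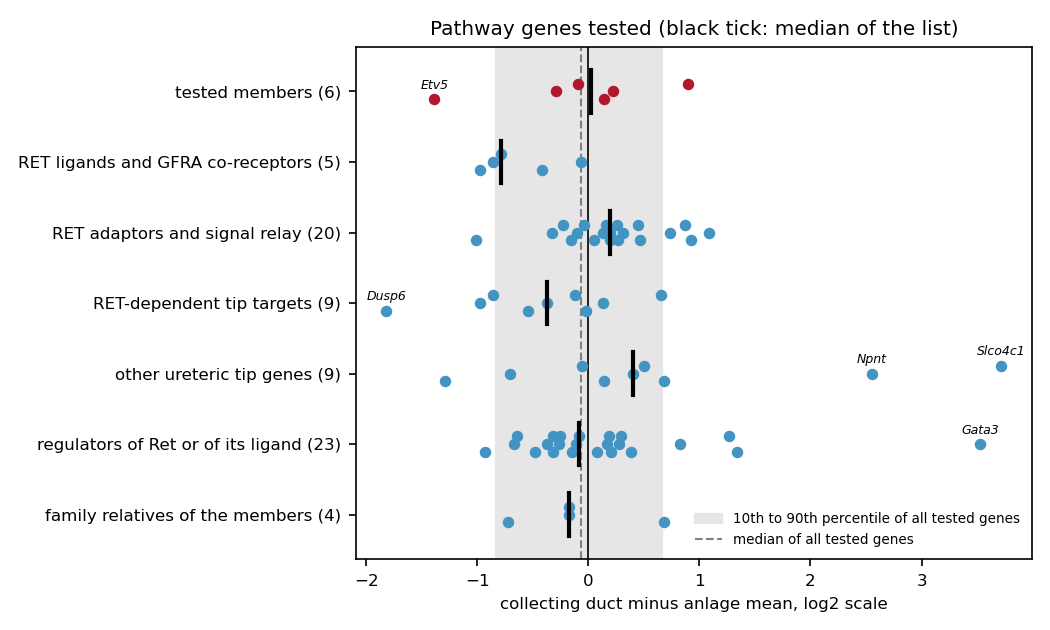
Difference between the collecting duct and the anlage mean (x axis, log2 scale) for the tested members (red) and the tested genes of 6 pathway lists (blue), with the number of genes in brackets and a black tick at each median. The grey band holds the central 80% of all tested genes, from −0.83 to 0.66. Slco4c1, Gata3 and Npnt stand far to the right, while Etv5 and Dusp6 lie furthest left.

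The segment marker lists were chosen with earlier results of these data known, so their values are no independent check of the labels. Of 17 tested collecting duct and stalk genes all 17 were higher in the collecting duct, with a median of 2.25. Of these, 16 lay above all 3 anlage arrays, against 17.3% of all tested genes. Of 14 loop genes 13 lay below all 3, against 24.3% of all, with a median of −2.83. In both lists limma called 0 genes over all genes. Over the 12642 tested genes the arrays correlated with each other at r = 0.813 to 0.915, a description across genes that are not independent. The signal at the 3′ end over that at the 5′ end is a ratio that is larger in shortened RNA. For Gapdh it was 12.0 in the collecting duct and 10.3, 54.1 and 26.0 in anlage arrays 1, 2 and 3. For actin it was 3.56 in the collecting duct and 3.06, 6.41 and 5.42 in the anlage arrays. The median deposited signal was 402.7 in the collecting duct and 526.5, 206.9 and 344.2 in the anlage arrays. Array 2 thus had the highest ratios and the lowest median before quantile normalization.

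Markers of other cell types differed between the anlage arrays in which the members differed. The nephron progenitor list (10 of 11 tested) averaged 10.58 in the collecting duct and 10.99, 11.77 and 10.55 in anlage arrays 1, 2 and 3. It was highest in array 2 and lowest in array 3, like the brightest probe sets of Ret, Etv5 and Mycn but not their other probe sets. Six2, which keeps progenitors undifferentiated, stood at 9.86 in the collecting duct and at 10.86, 11.10 and 9.82 in the anlage. Its order over the anlage arrays was the same. The early nephron list (9 of 10) had 10.94 in the collecting duct and 11.46, 11.98 and 11.41 in the anlage, and the podocyte list (4 of 7) 10.79 in the collecting duct and 10.77, 12.42 and 11.01. Array 2 also had the highest collecting duct list of the anlage arrays, with 12.80 in the collecting duct and 10.13, 11.07 and 9.96 in the anlage, and the lowest loop list, with 9.20 in the collecting duct and 12.52, 11.34 and 12.24. The stroma list (14 of 14) was highest in anlage array 3, with 12.78 in the collecting duct and 12.68, 12.70 and 13.62. The part of these differences, of the Gapdh and actin ratios and of the median signals in the member values was not tested.

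The other marker lists held further differences between the anlage arrays. The endothelial list (9 of 11) had 9.18 in the collecting duct and 9.93, 10.75 and 10.83 in the anlage, and the proximal tubule list (9 of 9) 8.95 in the collecting duct and 9.63, 9.92 and 9.88. The blood and macrophage list (6 of 11) had 9.03 in the collecting duct and 9.70, 9.97 and 9.32 in the anlage. The 3 anlage arrays were in the order of the brightest Ret probe set, but the collecting duct was the lowest here. Nerve and neural crest genes, a cell type that also uses RET, had 4 of 12 tested, with 8.76 in the collecting duct and 8.97 to 9.12 in the anlage. The ureteric tip list, which holds 6 of the members, had 7 of 11 tested. Of these, 5 were higher in the collecting duct, against 45.1% of all genes. The list, of whose tested genes 3 are members, averaged 10.55 in the collecting duct and 10.34, 10.52 and 9.35 in the anlage. The 4 other tested genes, Wnt11, Slco4c1, Emx2 and Tmem59l, averaged 10.86 in the collecting duct and 10.01, 9.82 and 9.51 in the anlage. Slco4c1 weighed most in this mean, at 12.01 in the collecting duct and 9.18, 7.46 and 8.23 in the anlage. Its other probe set gave a difference of −0.23. Emx2, Tmem59l and Wnt11 differed by 0.50, 0.14 and −0.019, and all lay inside the anlage range.

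**Figure D4:**
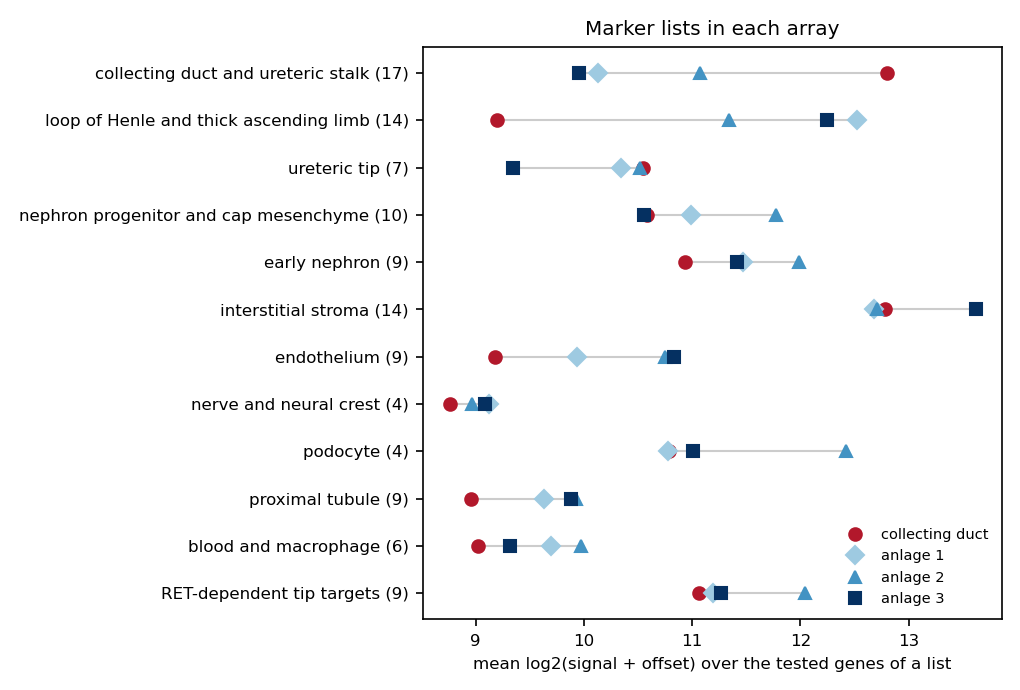
Mean log2(signal + 109.6) over the tested genes of each list (x axis) in the collecting duct array (red circle) and anlage arrays 1 (diamond), 2 (triangle) and 3 (square), with the number of genes in brackets. The collecting duct stands apart on the first 2 lists, anlage array 3 is lowest on the ureteric tip list (which includes members), and anlage array 2 is highest on the nephron progenitor and RET-dependent target lists.

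Over the 4 arrays, the genes whose pattern lay nearest to that of Ret were Tox3, Map7d2 and Acpp, at Euclidean distances of 0.47, 0.77 and 0.80 between log2 values centred on each gene's mean. Tox3 stood at 9.24 in the collecting duct and at 8.79, 10.43 and 7.01 in anlage arrays 1, 2 and 3. Nearest to Etv5 were Pigz, Aox3 and Pcp4, at 0.30, 0.31 and 0.51. Pcp4 stood at 8.95 in the collecting duct and at 10.83, 10.48 and 8.99 in the anlage arrays, so it shared the low collecting duct and low anlage array 3 of Etv5. With 12642 genes and 4 arrays such nearness is a description only.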

How the data were processed

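Per the labels' protocols, RNA went through 2 rounds of amplification before biotin labelling. The authors deposited 1 intensity value per probe set and array on a linear scale, with GCOS named in the submitters' processing notes and no version or algorithm given in the sources used here. Trimmed by 2% at both ends, every array had a mean of 1500, so each had been scaled to it. Precision is limited by the number of arrays.

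The arrays were quantile normalized and log2(signal + 109.6) was taken. The 64 control probe sets were then left out, which left 45037, of which 34945 had 1 gene symbol, 932 several and 9160 none in the platform table. All 9 members matched RefSeq by Entrez number. The brightest probe set stood for a gene, and 12642 of 18193 genes reached 8.416. The fit used limma 3.58.1 in R 4.3.3 (lmFit, eBayes with an intensity trend, two-sided, threshold 0.05), with 2 residual degrees of freedom from the anlage arrays, like which the lone collecting duct array was taken to vary. An exact permutation test of 1 against 3 cannot go below 0.25 and was not used. Member probe sets were also fitted within all probe sets past the filter. Alternatives changed the normalization, offset, filter, probe set rule, variance trend and anlage arrays. Named were all members, up to 5 genes of each pathway list by size of difference, up to 3 markers a list, and the 3 genes nearest to Ret and to Etv5. Members and lists were chosen with earlier results of these data known. Promoter motifs were searched on both strands of the RefSeq sequences.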

Additional observations from a re-analysis of the deposited data

How the results depend on the processing

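Under the 10 other settings 0 member genes and, where fitted, 0 member probe sets were called, and the adjusted p of a member was never under 0.432. Over all genes, limma called 0 in each setting except without anlage array 2, where 14 passed; leaving out 1 anlage array in turn gave 0 to 14. The count at an unadjusted p under 0.05, 431, was 1401 without anlage array 1, 192 without anlage array 3 and 647 with no filter. The difference of Ret turned to −0.10 with arrays scaled to a common median, −0.018 with the offset at the median and −0.86 without anlage array 3. With an anlage array left out in turn it ran from −0.86 to 1.04, that of Etv4 from −0.062 to 0.38 and that of Mycn from −0.60 to 0.70, the sign of Etv4 turning without array 3 and that of Mycn without array 2. The other 6 kept their sign in all 10 but not their size: Gfra1 ran from 0.55 to 0.91, Etv5 from −2.06 to −0.33, Sox8 from 0.19 to 1.10, Sox9 from −0.52 to −0.092, Ros1 from 0.77 to 1.82 and Adamts18 from −1.62 to −0.28. The number of tested members outside the anlage range, 1 of 6, was 2 of 6 when probe sets were averaged and 3 of 9 with no filter. It was 3 of 7 without anlage array 1, 3 of 6 without array 2 and 4 of 7 without array 3. A range then spans 2 arrays only and is easier to fall outside. The share over all genes was not taken in these settings, so these counts show nothing particular to the members. The cause of the changes between settings was not tested. No paired analysis was possible because the groups share only replicate number 3. A single collecting duct array gives no spread of its own.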
